A study of Mus musculus with 12 samples.

Results

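Folate carries the one-carbon units that cells use to make purines and thymidylate and to remethylate homocysteine. Here 8 genes of folate transport and one-carbon metabolism were followed in inguinal white adipose tissue (iWAT), the subcutaneous depot in which beige fat cells arise: the folate carriers Slc19a1 and Slc46a1, and the enzymes Mthfd1, Mthfd2, Mthfd1l, Shmt1, Shmt2 and Aldh1l1. They were taken by gene symbol from tables of 24091 genes, and all 8 were among the 15413 genes kept for testing. The set was chosen by the measured rise of Slc19a1 in bBMKO at both temperatures, so every difference between the genotypes in these 8 genes is given as a description, with no test.

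RNA was sequenced from 12 mice, with 1 library per mouse and 3 mice in each of 4 groups: cold bBMKO, cold bBMCtr, ambient bBMKO and ambient bBMCtr. The bBMKO mice (BMKO in the labels) carried Prx1-Cre and floxed Bmal1 alleles (Bmal1 fl/fl), and the bBMCtr mice (BMCtr in the labels) were Bmal1 fl/fl littermates without Cre, all on the C57BL/6 strain. Bmal1 is a core transcription factor of the circadian clock, and Prx1-Cre is active in the progenitors and the mature fat cells of subcutaneous depots. Whether other cells of the tissue kept an intact gene was not tested. Cold mice were held at 10 °C for 2 weeks and ambient mice at 22 °C. The labels give no age. The study's legends name a younger age for sequenced iWAT of the genotype comparison than its methods name for the start of cold acclimation. Age may thus differ between the temperatures, and its part cannot be told apart from the cold.

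Libraries held 17887795 to 21436282 counts. Arntl, the gene of Bmal1, was counted over its whole length. It read 17.6 to 19.6 CPM in cold bBMKO against 6.14 to 8.25 CPM in cold bBMCtr (CPM are counts scaled to a common library total after TMM, edgeR's library scaling). At ambient temperature it read 13.5 to 18.2 CPM in bBMKO against 3.77 to 10.7 CPM in bBMCtr. Its counts were thus higher in bBMKO, whereas the study reported a loss of the Bmal1 transcript and absence of its protein in bBMKO iWAT. Counts over the whole gene and those assays differ in what they measure, so Arntl does not check the labels. Nr1d1, a clock gene that Bmal1 induces, was lower in bBMKO at both temperatures, by a log2 fold change of -1.58 (SE 0.12) in the cold and -0.90 (SE 0.12) at ambient temperature. All 6 cold libraries held the Y-linked Ddx3y at 97.3 CPM or more and all 6 ambient libraries held Xist at 1313 CPM or more, so temperature and sex cannot be told apart. One ambient bBMKO library, replicate 2, held Ddx3y at 4.53 CPM beside its Xist. The study's legends name male mice for a sequencing panel comparing the genotypes, and female mice for a panel of both temperatures. Neither describes a split of sex by temperature. Fat cell markers were high throughout, with a summed level of 9576 to 27850 CPM. In bulk tissue, fewer cells of a type and less RNA per cell cannot be told apart.

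In this pathway Slc19a1, the reduced folate carrier, brings folates into cells from the blood, and Slc46a1, the proton-coupled folate transporter, does so at acid pH and is best known from the gut. The serine hydroxymethyltransferases move a one-carbon unit from serine to tetrahydrofolate, Shmt1 in the cytosol and Shmt2 in mitochondria. The mitochondrial Mthfd2 and Mthfd1l pass that unit on to formate, which the trifunctional cytosolic Mthfd1 returns to folate, and Aldh1l1 burns surplus formyl folate to carbon dioxide in the cytosol. Mthfd2 in particular is known for its high level in dividing cells and low level in resting adult tissue.

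The positions of the genes in the files are on mouse build mm10. Slc19a1 lies on the forward strand of chromosome 10 from 77032739 to 77050432, Mthfd1l on the forward strand of chromosome 10 from 3973075 to 4167081, and Shmt2 on the reverse strand of chromosome 10 from 127517123 to 127522444. Slc46a1 (forward, 78465701 to 78471945) and Shmt1 (reverse, 60788897 to 60811265) are on chromosome 11. Mthfd2 (reverse, 83305704 to 83317604) and Aldh1l1 (forward, 90550818 to 90599171) are on chromosome 6, and Mthfd1 (forward, 76255232 to 76319820) is on chromosome 12. Shmt2 overlaps Ndufa4l2 on the other strand. As positioned in the deposited data, Mir5098 spans both Slc46a1 and Shmt1, although these lie far apart on chromosome 11. In the GENCODE annotation of this build, neither Slc46a1 nor Shmt1 overlaps Mir5098. There Slc19a1 overlaps Col18a1 and Shmt1 overlaps Smcr8, each on the other strand. Whether the counting used the strand is not given in the sources used here, so reads from the pairs on opposite strands cannot be told apart.

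The 250 bases before the start site are shown for both carriers, which were higher in bBMKO at each temperature, and for Mthfd1l and Mthfd2, the genes that were lowest in cold bBMKO relative to cold bBMCtr. Capitals mark CCAAT or GGGCGG, read on either strand. The sequences come from RefSeq on GRCm38.p6 (mm10), each written 5′ to 3′ on the strand of its gene, at chr10:77032489-77032738 (Slc19a1, the first of its start sites), chr11:78465451-78465700 (Slc46a1), chr10:3972825-3973074 (Mthfd1l) and chr6:83317605-83317854 (Mthfd2).
Slc19a1: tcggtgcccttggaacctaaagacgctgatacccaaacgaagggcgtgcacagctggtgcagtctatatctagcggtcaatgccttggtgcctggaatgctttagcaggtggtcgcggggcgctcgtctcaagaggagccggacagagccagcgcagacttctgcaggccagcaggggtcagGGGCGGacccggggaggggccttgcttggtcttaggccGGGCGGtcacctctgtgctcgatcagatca
Slc46a1: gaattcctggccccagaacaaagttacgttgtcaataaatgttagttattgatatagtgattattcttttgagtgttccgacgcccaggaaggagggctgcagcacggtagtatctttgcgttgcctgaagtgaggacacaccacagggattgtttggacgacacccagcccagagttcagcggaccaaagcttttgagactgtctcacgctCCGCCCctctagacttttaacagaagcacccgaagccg
Mthfd1l: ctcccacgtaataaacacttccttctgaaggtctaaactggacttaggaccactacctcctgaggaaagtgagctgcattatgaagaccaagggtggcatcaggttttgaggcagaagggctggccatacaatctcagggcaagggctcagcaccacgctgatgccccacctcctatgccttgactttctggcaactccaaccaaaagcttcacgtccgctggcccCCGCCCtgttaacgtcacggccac
Mthfd2: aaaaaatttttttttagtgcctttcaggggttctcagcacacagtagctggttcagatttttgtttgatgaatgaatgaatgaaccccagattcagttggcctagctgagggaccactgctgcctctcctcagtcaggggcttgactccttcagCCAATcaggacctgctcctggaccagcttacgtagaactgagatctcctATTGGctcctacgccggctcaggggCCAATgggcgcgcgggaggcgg

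Bmal1 binds the E-box CACGTG as a dimer with Clock. Neither CACGTG nor the related CACGTT was found on either strand in the 250 bases before any of the 8 genes, against 6.02% and 3.85% of the 32851 promoter windows of this length in the RefSeq table. TGATGNAAN, a sequence of the kind bound by Atf4, a transcription factor that induces Mthfd2 under amino acid shortage, was also found in none of the 8, against 3.44% of all windows. CCAAT stood before 4 of the 8 genes (33.8% of all windows) and 3 times before Mthfd2. GGGCGG stood before 6 of the 8 (32.7% of all windows) and was missing before Mthfd2 and Shmt2. CACGTG and CACGTT share all but the last letter, though no stretch can match both. These matches describe the letters of the windows alone.

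Per unit of transcript length, Aldh1l1 was the most abundant of the 8 in every group, and Slc19a1 moved most in the order. Levels here are deposited FPKM (reads scaled by transcript length and library total), as mean ± SD over 3 libraries. Aldh1l1 stood at 46.8 ± 4.1 FPKM in cold bBMKO, 51.4 ± 6.2 FPKM in cold bBMCtr, 43.9 ± 2.6 FPKM in ambient bBMKO and 41.9 ± 13.0 FPKM in ambient bBMCtr, above 94.8% of the genes kept. Slc19a1 was second in both bBMKO groups, at 13.8 ± 1.6 FPKM in the cold and 10.9 ± 1.6 FPKM at ambient temperature. In bBMCtr it was sixth in the cold, at 3.38 ± 0.13 FPKM, and seventh at ambient temperature, at 3.79 ± 0.21 FPKM.

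**Figure D1:**
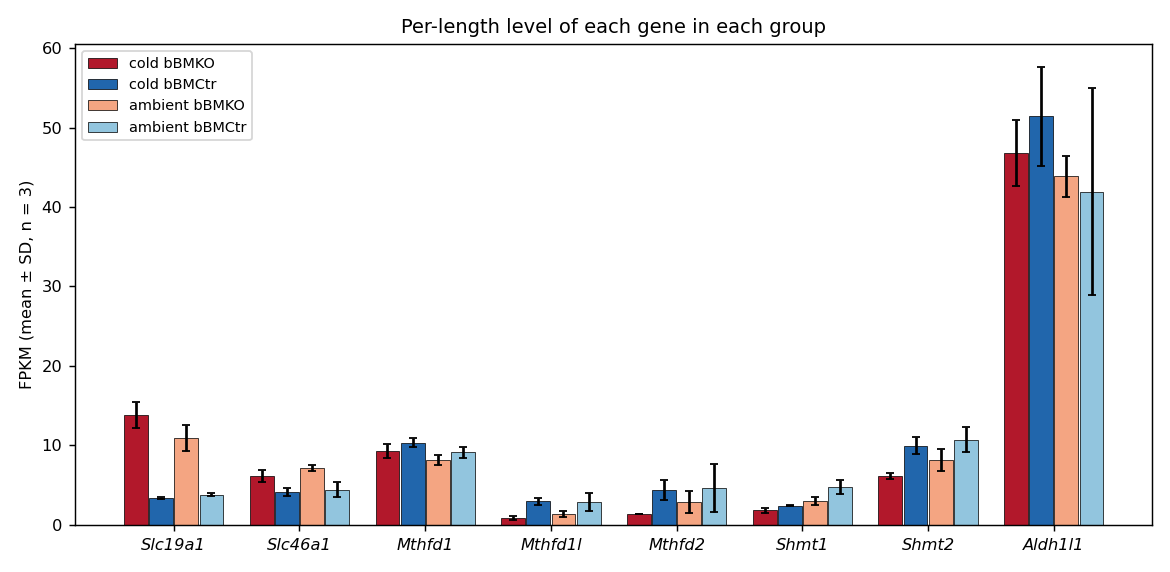
Bars give the deposited FPKM of each of the 8 genes (mean, error bars SD, n = 3 libraries) in cold bBMKO, cold bBMCtr, ambient bBMKO and ambient bBMCtr. Aldh1l1 towers over the others in every group, at 41.9 to 51.4 FPKM, and Slc19a1 stands at 13.8 and 10.9 FPKM in the bBMKO groups against 3.38 and 3.79 FPKM in the bBMCtr groups.

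Below Aldh1l1 the order differed between groups. In cold bBMKO it ran Slc19a1, Mthfd1 (9.35 FPKM), Shmt2 (6.16 FPKM), Slc46a1 (6.13 FPKM), Shmt1 (1.82 FPKM), Mthfd2 (1.36 FPKM) and Mthfd1l (0.856 FPKM), and only the neighbours Shmt2 and Slc46a1 overlapped in range. In cold bBMCtr it ran Mthfd1 (10.3 FPKM), Shmt2 (9.97 FPKM), Mthfd2 (4.41 FPKM), Slc46a1 (4.13 FPKM), Slc19a1, Mthfd1l (2.96 FPKM) and Shmt1 (2.41 FPKM). There the ranges of Mthfd1 and Shmt2, of Mthfd2 and Slc46a1, and of Slc19a1 and Mthfd1l overlapped. In both ambient groups most neighbours overlapped: in ambient bBMCtr the 5 genes from Shmt1 (4.76 FPKM) down to Mthfd1l (2.88 FPKM) could not be ordered beyond their spread.

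Slc19a1 held the widest gap between genotypes of the 8. It read 98.9, 75.4 and 93.05 CPM in cold bBMKO, against 19.9, 18.6 and 18.6 CPM in cold bBMCtr. At ambient temperature it read 71.9, 53.9 and 67.8 CPM in bBMKO, against 19.6, 20.9 and 23.2 CPM in bBMCtr. Every bBMKO library was thus over every bBMCtr library, and the bBMCtr libraries of both temperatures lay close together. The fitted log2 fold change was 2.23 (SE 0.13, 4.68-fold) in the cold and 1.60 (SE 0.13, 3.04-fold) at ambient temperature, the values that chose the set.

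Slc46a1 was also higher in bBMKO, by less. Its 3 cold bBMKO libraries read 19.8, 17.05 and 21.5 CPM, against 11.7, 10.2 and 12.75 CPM in cold bBMCtr. At ambient temperature the levels were 21.3, 22.2 and 19.2 CPM in bBMKO, against 9.41, 12.2 and 15.35 CPM in bBMCtr. The groups did not overlap at either temperature, and the log2 fold changes were alike, at 0.75 (SE 0.17) in the cold and 0.76 (SE 0.17) at ambient temperature. Per length, Slc19a1 stood at 2.13 to 2.47 times Slc46a1 in cold bBMKO and at 0.721 to 0.905 times in cold bBMCtr, and at 1.20 to 1.75 times in ambient bBMKO and 0.748 to 1.03 times in ambient bBMCtr. Slc19a1 thus exceeded Slc46a1 in all bBMKO libraries and was close to or under it in bBMCtr.

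**Figure D2:**
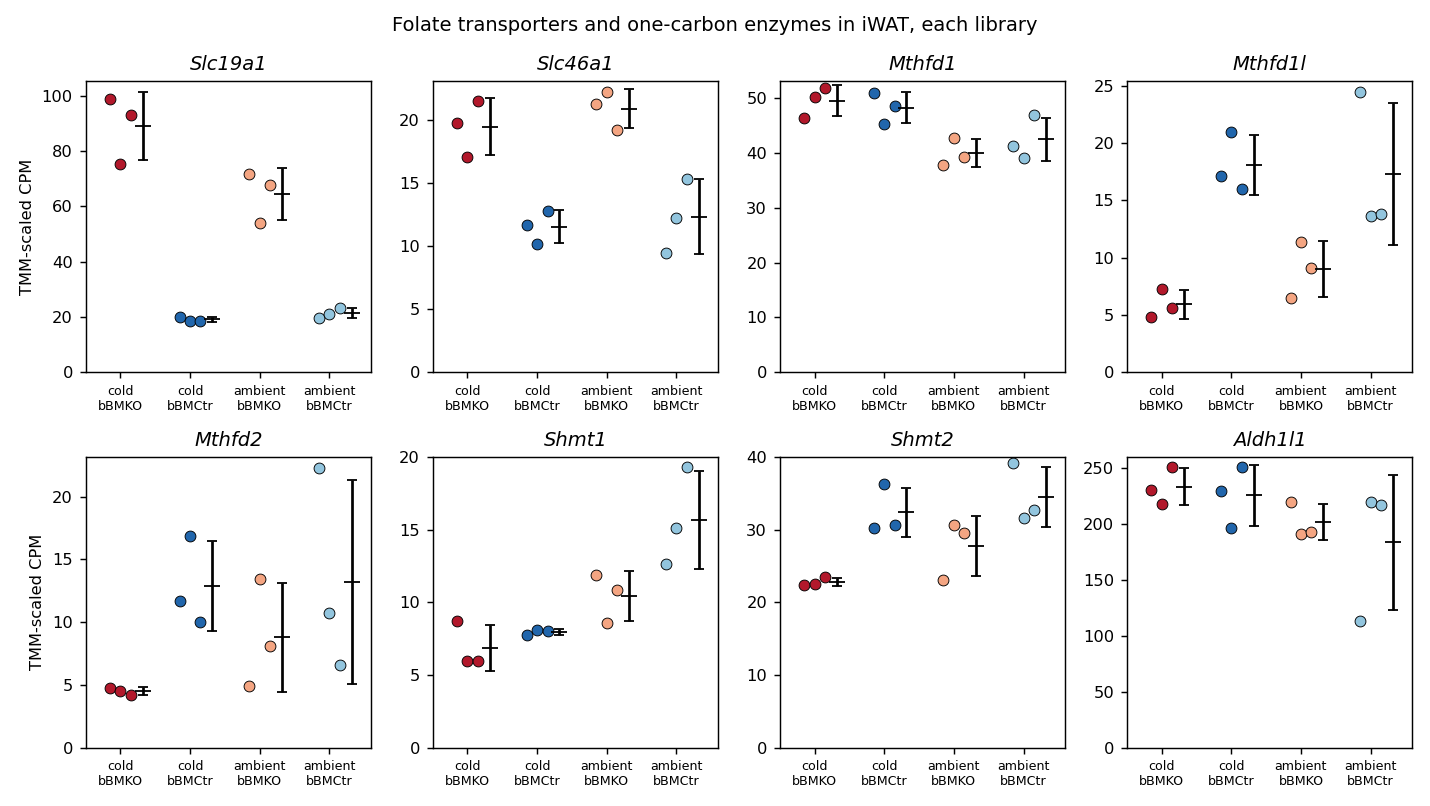
Each panel plots 1 gene as TMM-scaled CPM, with 1 point per library and the mean ± SD (n = 3) beside each group, in the order cold bBMKO, cold bBMCtr, ambient bBMKO, ambient bBMCtr. Slc19a1 lies between 53.9 and 98.9 CPM in the bBMKO libraries and between 18.6 and 23.2 CPM in the bBMCtr libraries, while Mthfd1 and Aldh1l1 overlap between genotypes.

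The mitochondrial formate enzymes ran the other way. Mthfd1l, the mitochondrial formyltetrahydrofolate synthetase, read 4.85, 7.29 and 5.60 CPM in cold bBMKO, against 17.2, 21.0 and 16.0 CPM in cold bBMCtr. In ambient mice it read 6.51, 11.35 and 9.14 CPM in bBMKO, against 24.4, 13.7 and 13.8 CPM in bBMCtr. All bBMKO libraries lay under all bBMCtr libraries of the same temperature, with log2 fold changes of -1.61 (SE 0.28) in the cold and -0.94 (SE 0.27) at ambient temperature.

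Mthfd2, the mitochondrial dehydrogenase and cyclohydrolase, was at 4.79, 4.54 and 4.22 CPM in cold bBMKO, against 11.7, 16.9 and 10.0 CPM in cold bBMCtr. Ambient libraries were far more scattered, with 4.88, 13.4 and 8.07 CPM in bBMKO, against 22.3, 10.8 and 6.57 CPM in bBMCtr. The genotypes were apart in the cold (log2 fold change -1.51, SE 0.46) and overlapped at ambient temperature (-0.59, SE 0.44). Relative to the cytosolic Mthfd1, Mthfd2 stood at 0.130 to 0.165 per length in cold bBMKO and at 0.330 to 0.595 in cold bBMCtr. Slc19a1 stood at 8.56 to 11.4 times Mthfd2 in cold bBMKO and at 0.571 to 0.958 times in cold bBMCtr, so the carrier and the enzyme changed places in the order.

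Shmt2, the mitochondrial serine hydroxymethyltransferase, read 22.4, 22.6 and 23.5 CPM in cold bBMKO, against 30.2, 36.3 and 30.7 CPM in cold bBMCtr. Its ambient levels were 23.0, 30.65 and 29.6 CPM in bBMKO, against 39.2, 31.6 and 32.7 CPM in bBMCtr. The genotypes did not overlap at either temperature, but the differences were small, with log2 fold changes of -0.51 (SE 0.13) in the cold and -0.31 (SE 0.12) at ambient temperature. Shmt1, its cytosolic counterpart, was at 11.9, 8.55 and 10.8 CPM in ambient bBMKO, against 12.7, 15.1 and 19.3 CPM in ambient bBMCtr (log2 fold change -0.59, SE 0.20). In the cold the Shmt1 groups overlapped (-0.21, SE 0.20).

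The cytosolic Mthfd1 and Aldh1l1 did not separate the genotypes. Mthfd1 read 46.4 to 51.9 CPM in cold bBMKO against 45.3 to 51.0 CPM in cold bBMCtr, and 37.9 to 42.8 CPM in ambient bBMKO against 39.1 to 46.9 CPM in ambient bBMCtr. Its log2 fold changes were 0.04 (SE 0.09) in the cold and -0.09 (SE 0.09) at ambient temperature. Aldh1l1 ranged from 218 to 251 CPM in cold bBMKO and from 196 to 251 CPM in cold bBMCtr, and from 191.5 to 220 CPM in ambient bBMKO and 114 to 220 CPM in ambient bBMCtr, where replicate 1 was low. Its log2 fold changes were 0.05 (SE 0.21) and 0.14 (SE 0.21).

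**Figure D3:**
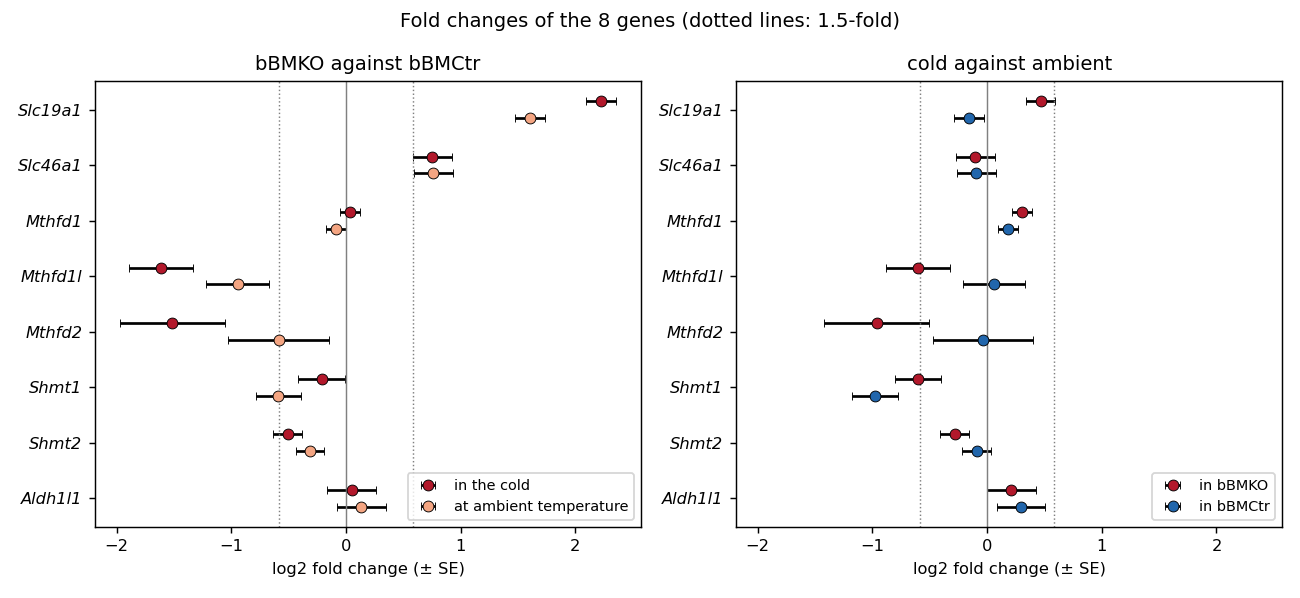
Points give the log2 fold change of each of the 8 genes with its standard error from edgeR, for bBMKO against bBMCtr in the cold and at ambient temperature (left) and for cold against ambient in bBMKO and bBMCtr (right), with dotted lines at 1.5-fold. Between genotypes Slc19a1 is at 2.23 and 1.60 and Mthfd1l at -1.61 and -0.94, whereas between temperatures Shmt1 is the gene farthest below 0 in bBMCtr, at -0.98.

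The study's thresholds asked for a change of more than 1.5-fold with p under 0.05 before and under 0.25 after Benjamini-Hochberg adjustment. Counted by them, and with no test meant since the genotype contrast chose the set, 2 of the 8 members lay past them as higher at each temperature (both carriers) and 2 as lower (Mthfd1l with Mthfd2 in the cold and with Shmt1 at ambient temperature). Across all 15413 genes the same thresholds called 22.8% in the cold (9.67% higher and 13.1% lower) and 8.63% at ambient temperature (3.88% higher and 4.75% lower). At each temperature 2 members lay wholly over and 3 wholly under bBMCtr, and groups did not overlap for 56.5% of all genes in the cold (29.7% higher, 26.9% lower) and for 21.1% at ambient temperature (13.7% higher, 7.34% lower). Nothing is read from these counts. The median log2 fold change of the 8 was -0.09 in the cold, beside 0.05 for all genes, and -0.20 at ambient temperature, beside -0.01 for all genes.

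How far single libraries set these differences varied. With each of the 12 libraries left out in turn, the log2 fold change of Slc19a1 ran from 2.15 to 2.33 in the cold and from 1.52 to 1.74 at ambient temperature. That of Mthfd1l at ambient temperature ran from -1.12 to -0.63, and it was no longer past the thresholds without ambient bBMKO replicate 1. The ambient value of Mthfd2 was between -0.99 and -0.0019 over these fits, and was nearest 0 without ambient bBMCtr replicate 1, the library with 22.3 CPM. Shmt1 at ambient temperature ran from -0.73 to -0.40.

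Scaling shifts all values together. Library size alone, in place of TMM, moved the median log2 fold change of all genes by -0.21 for genotype in the cold, by -0.12 for genotype at ambient temperature and by -0.15 for cold against ambient in bBMKO. Under it the cold values were 0.54 for Slc46a1, -0.72 for Shmt2, -0.18 for Mthfd1 and -0.16 for Aldh1l1. The limma fit of the deposited log2 FPKM, which carry no TMM factor, gave Slc19a1 a log2 fold change of 1.997 (SE 0.12) in the cold and 1.49 (SE 0.12) at ambient temperature.

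Cell division was then followed in each library, since the mitochondrial enzymes are known to go with it. A score, the mean log2 CPM of 38 cell division genes, was 1.65, 1.90 and 1.55 in cold bBMKO, against 2.88, 3.96 and 2.74 in cold bBMCtr. At ambient temperature it was 1.97, 2.90 and 2.37 in bBMKO, against 3.33, 2.75 and 3.70 in bBMCtr. The genotypes were apart in the cold and overlapped at ambient temperature. Of the 38 genes, 34 fell in bBMKO in the cold, beside 13.1% of all genes, and 17 at ambient temperature, beside 4.75%, with median log2 fold changes of -1.88 and -0.97. Over the 12 leave-outs 28 of the 34 cold calls held in every fit, against 1 of the 17 ambient calls. Mki67, the gene of the proliferation antigen Ki-67, fell by 2.74 on the log2 scale in the cold (SE 0.45, edgeR adjusted p = 0.00287) and fell by 1.21 at ambient temperature (SE 0.43, adjusted p = 0.1485).

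Set beside the score, the members fell into different patterns. Among the 3 cold bBMCtr libraries, replicate 2 had both the highest score, 3.96, and the most Mthfd2, Mthfd1l and Shmt2. Among the ambient bBMKO libraries, replicate 2 had the highest score, 2.90, and again the most of all 3 enzymes. The other groups did not show this order. In cold bBMKO replicate 2 had the highest score, 1.90, and the most Mthfd1l, but replicate 1 had the most Mthfd2 and replicate 3 the most Shmt2. These libraries lay close, at 82, 79 and 76 counts of Mthfd2 and 22.4 to 23.5 CPM of Shmt2, so nothing is read from their order. In ambient bBMCtr replicate 3 had the highest score, 3.70, but the least Mthfd2, at 6.57 CPM, and replicate 1, at 3.33, had the most of all 3 enzymes. Slc19a1 read 53.9 CPM in ambient bBMKO replicate 2 (score 2.90) and 20.9 CPM in ambient bBMCtr replicate 2 (score 2.75).

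**Figure D4:**
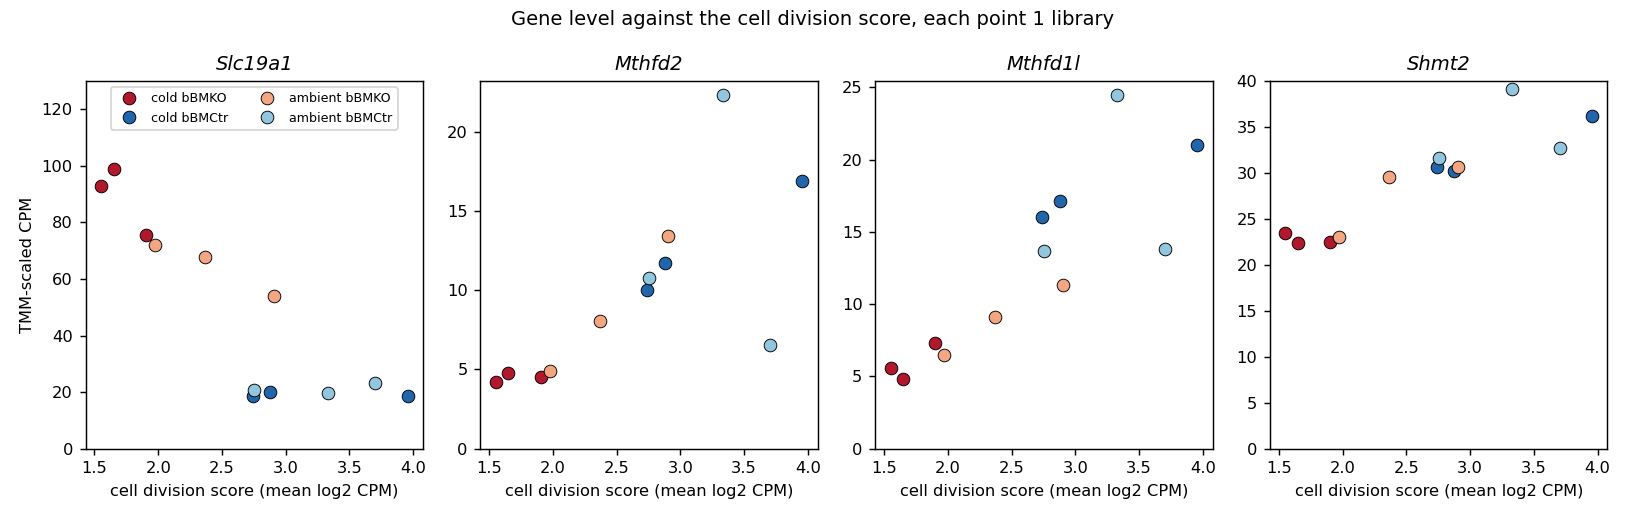
Each point is 1 library, with the cell division score (mean log2 CPM of 38 genes) across and the TMM-scaled CPM of Slc19a1, Mthfd2, Mthfd1l or Shmt2 up. Slc19a1 lies at 53.9 to 98.9 CPM in bBMKO and at 18.6 to 23.2 CPM in bBMCtr, and ambient bBMCtr replicate 3, with a score of 3.70, holds Mthfd2 at 6.57 CPM.

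With the score as a covariate, the log2 fold change of Slc19a1 was 2.03 (SE 0.22) in the cold and 1.49 (SE 0.16) at ambient temperature. Mthfd2 in the cold was at -0.55 (SE 0.71). Mthfd1l was at -0.95 (SE 0.40) in the cold and -0.60 (SE 0.30) at ambient temperature, and Shmt2 at -0.17 (SE 0.17) and -0.13 (SE 0.13). Slc46a1 was at 0.69 (SE 0.30) and 0.72 (SE 0.22). The score is itself lower in bBMKO, so the covariate and the genotype share much of their variation in these libraries, and the part of cell division in the differences was not tested.

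Markers of other cells moved with the genotype too, and their part in the differences was not tested. The summed level of 11 lymphocyte markers was 15.2 to 46.0 CPM in cold bBMKO, against 672 to 1090 CPM in cold bBMCtr. In ambient mice it was 23.6, 41.2 and 355.8 CPM in bBMKO, against 1319, 498 and 24.8 CPM in bBMCtr. Mthfd2 was lowest among the ambient bBMCtr libraries in replicate 3, at 24.8 CPM of these markers, but highest among the ambient bBMKO libraries in replicate 2, at 41.2 CPM, and not in replicate 3, at 355.8 CPM. All 11 markers fell in bBMKO in the cold, beside 13.1% of all genes. With these markers as a covariate the cold value of Mthfd2 was -0.43 (SE 0.60) and that of Mthfd1l -1.20 (SE 0.41), against 2.19 (SE 0.20) for Slc19a1. The cold value of Slc46a1 was 0.34 (SE 0.21). The summed level of 8 macrophage markers was highest in ambient bBMKO replicate 2 (3034 CPM), cold bBMCtr replicate 2 (2461 CPM) and ambient bBMCtr replicate 1 (2222 CPM) within their groups. Those libraries also had the most Mthfd2 of their groups. In cold bBMKO replicate 2 had the most of these markers, at 2286 CPM, and replicate 1 the most Mthfd2. The part of macrophages was not tested.

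Fat cell markers moved with the genotype as well, and their part was not tested. Their summed level was 24450 to 27850 CPM in cold bBMKO against 16510 to 20300 CPM in cold bBMCtr, and 13600 to 19280 CPM in ambient bBMKO against 9576 to 13770 CPM in ambient bBMCtr, apart in the cold and overlapping at ambient temperature. Their median log2 fold change was 0.52 in the cold and 0.49 at ambient temperature. By edgeR 2 and 1 of 8 were past the thresholds as higher, beside 9.67% and 3.88% of all genes. At an unadjusted p under 0.05 there were 7 and 6, but the share of all genes at that cut was not counted, so nothing is read from these. With the fat cell markers as a covariate, Slc19a1 stood at 2.02 (SE 0.16) in the cold and 1.39 (SE 0.16) at ambient temperature, and Slc46a1 at 0.46 (SE 0.20) and 0.48 (SE 0.19). Mthfd2 stood at -0.22 (SE 0.23) and 0.74 (SE 0.23), and Aldh1l1 at -0.52 (SE 0.16) and -0.38 (SE 0.15).

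Cold acclimation, which the rule of the set did not use, was tested for the members other than Slc19a1, whose values chose the set. Shmt1 fell in the cold in bBMCtr, to 7.75, 8.07 and 8.06 CPM against 12.7, 15.1 and 19.3 CPM in ambient bBMCtr (log2 fold change -0.98, SE 0.20, edgeR adjusted p = 0.00775). It fell in bBMKO as well, to 8.70, 5.97 and 5.94 CPM against 11.9, 8.55 and 10.8 CPM in ambient bBMKO (-0.60, SE 0.20, adjusted p = 0.0520), where the groups overlapped. Shmt1 was thus 1 of 8 members past the thresholds in each genotype. Of all genes, 14.8% passed in bBMCtr (3.48% higher, 11.3% lower) and 18.8% in bBMKO (6.41% higher, 12.4% lower).

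The other 7 members did not pass in edgeR. In bBMKO Slc19a1 was 1.38-fold higher in the cold (log2 fold change 0.47, SE 0.13), given with no test. Mthfd1 was 1.24-fold higher there (0.31, SE 0.09, edgeR adjusted p = 0.0272), and both genes lay under the fold minimum. These were the 2 members that lay wholly over ambient bBMKO, with Mthfd2 wholly under it, and groups of bBMKO did not overlap for 44% of all genes (21.2% higher, 22.7% lower). In bBMCtr only Shmt1 did not overlap, beside 32.1% of all genes (13.2% higher, 19% lower). Slc19a1 in bBMCtr had a log2 fold change of -0.16 (SE 0.13), likewise given with no test. In bBMKO, Mthfd2 stood at -0.96 (SE 0.46, edgeR unadjusted p = 0.0603, adjusted p = 0.151) and Mthfd1l at -0.61 (SE 0.28, unadjusted p = 0.0539, adjusted p = 0.140). Both passed as lower in DESeq2 (-0.94 and -0.59), with library size alone, with no filter on low values and in a fit of only the groups compared, and Mthfd1l also in limma.

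These cold values rest on few libraries and on a depot that also differed in mammary tissue. The Shmt1 call in bBMKO was lost without ambient bBMKO replicate 1 or 3 or cold bBMKO replicate 2 or 3, with log2 fold changes of -0.81 to -0.50 over the 12 leave-outs. All 13 mammary epithelium markers fell in each genotype, beside 11.3% of all genes lower in bBMCtr and 12.4% in bBMKO. Their summed level was 5.88 to 14.5 CPM in the cold libraries and 988 to 2029 CPM in the ambient ones. With them as a covariate Shmt1 turned to 0.87 in bBMCtr and 1.20 in bBMKO, no longer past the thresholds. Their part in the Shmt1 difference, like that of sex and of any difference in age, cannot be told apart from the cold.

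Of the 7 members other than Slc19a1, 0 passed the thresholds for an interaction of genotype and cold in edgeR, 0 had an unadjusted p under 0.05 and 0 passed in DESeq2. Of all genes 0.766% passed (0.169% higher, 0.597% lower). The gap of Slc19a1 between genotypes was larger in the cold by 0.62 on the log2 scale (SE 0.18), a difference of the values that chose the set and so given with no test. Mthfd2 stood at -0.93 (SE 0.63, edgeR adjusted p = 0.659) and Mthfd1l at -0.67 (SE 0.39, adjusted p = 0.645), and both passed without ambient bBMCtr replicate 1, at -1.54 and -1.01, and Mthfd2 also with fat cell markers as a covariate (-0.95).

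Beyond the 8 genes, 41 others of the pathway were listed by role, and 36 passed the filter on low values. Those below it were Ftcd, Dmgdh, Mat1a, Bhmt and Bhmt2. In the cold 7 rose in bBMKO and 1 fell, and at ambient temperature 4 rose and 0 fell by edgeR's quasi-likelihood test. The background was 9.67% of all genes higher and 13.1% lower in the cold, and 3.88% and 4.75% at ambient temperature, and the medians of the 36 were 0.24 and 0.12, beside 0.05 and -0.01 for all genes. At ambient temperature 3 of the 36 were lower at an unadjusted p under 0.05, and DESeq2 called 0 lower. None of the 36 passed for the interaction of genotype and cold in edgeR, with 1 at an unadjusted p under 0.05 and 0 called by DESeq2. Shares of all genes at an unadjusted p under 0.05 were not counted, so nothing is read from the counts at that cut.

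**Figure D5:**
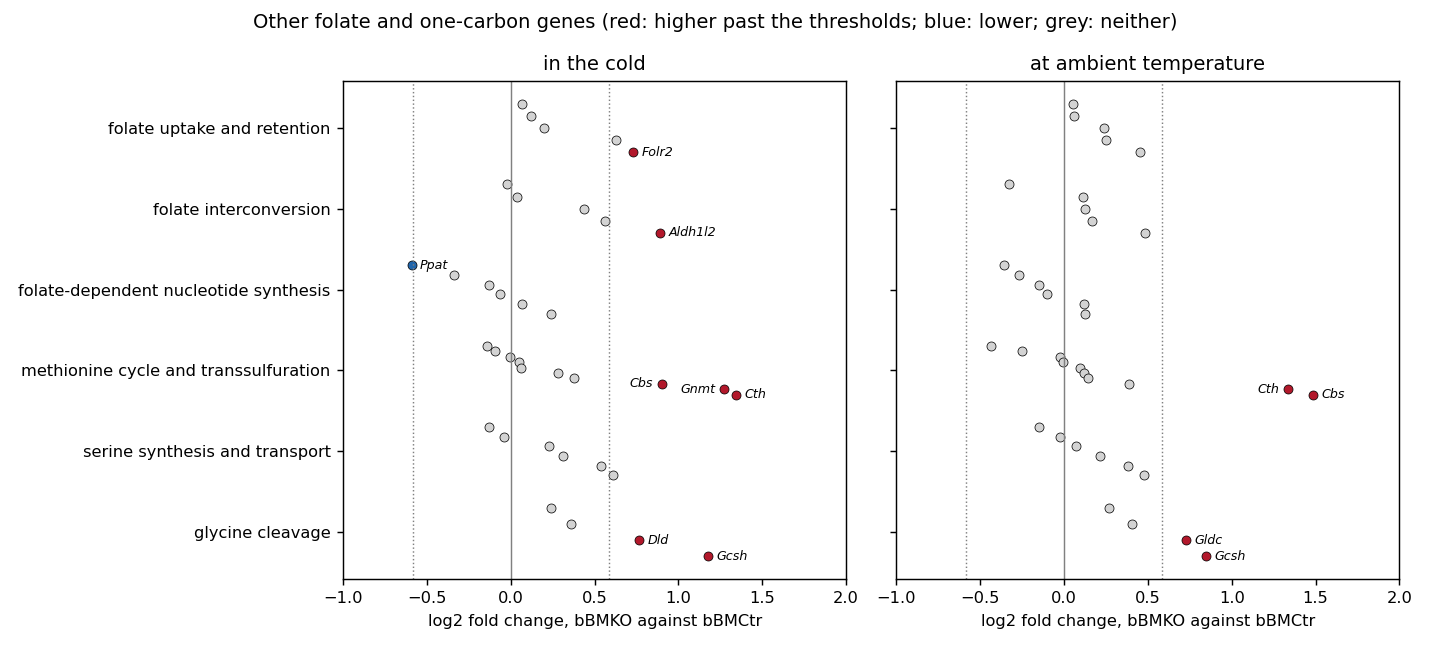
Each point is 1 of 36 other pathway genes, placed by its list and by its log2 fold change for bBMKO against bBMCtr, in the cold (left) and at ambient temperature (right), with dotted lines at 1.5-fold and red or blue for genes past the thresholds. Cbs lies at 0.90 and 1.49 and Cth at 1.34 in both, and the named genes of transsulfuration and glycine cleavage lie on the right in both panels.

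Of 5 interconversion genes tested, Aldh1l2, the mitochondrial formyl folate dehydrogenase, rose in cold bBMKO to 4.96, 5.05 and 4.33 CPM, against 2.77, 2.30 and 2.67 CPM in cold bBMCtr (0.89, SE 0.26, edgeR adjusted p = 0.0261). It was at 5.29, 9.32 and 5.08 CPM in ambient bBMKO against 4.29, 3.77 and 6.03 CPM in ambient bBMCtr, and fell with cold in bBMCtr (-0.86, SE 0.26, adjusted p = 0.0510). Mtfmt, Mthfd2l, Mthfs and Sardh did not pass in any comparison.

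Glycine cleavage is the mitochondrial system that feeds one-carbon units from glycine to folate. It had 2 of 4 genes higher at each temperature, beside 9.67% of all genes in the cold and 3.88% at ambient temperature. Gcsh, its lipoyl carrier protein, read 107.6, 90.1 and 106.5 CPM in cold bBMKO, against 45.5, 41.0 and 48.2 CPM in cold bBMCtr (1.18, SE 0.14, edgeR adjusted p = 0.000706). In ambient mice it read 73.5, 71.4 and 62.3 CPM in bBMKO, against 32.6, 34.9 and 48.0 CPM in bBMCtr (0.85, SE 0.14, adjusted p = 0.0107). The Gcsh groups did not overlap at either temperature, and the call held in every leave-out.

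Gldc, the glycine decarboxylase, rose in ambient bBMKO to 10.8, 8.10 and 9.09 CPM, against 3.85, 6.52 and 6.57 CPM in ambient bBMCtr (0.73, SE 0.21, adjusted p = 0.0853 by edgeR), a call lost without replicate 1 of either group and with cell division or fat cell markers as a covariate. It also rose with cold in bBMCtr (1.15, SE 0.21, adjusted p = 0.00402) and bBMKO (0.66, SE 0.20, adjusted p = 0.0392). Dld, the dihydrolipoamide dehydrogenase that also serves other mitochondrial complexes, rose in cold bBMKO (0.77, SE 0.22, adjusted p = 0.0225), though not without cold bBMKO replicate 1 or with cell division, lymphocyte or fat cell markers as a covariate. Amt, the aminomethyltransferase, fell with cold in bBMCtr (-1.24, SE 0.32, adjusted p = 0.0257) and bBMKO (-1.15, SE 0.32, adjusted p = 0.0249), calls lost with mammary markers as a covariate. These markers split all libraries by temperature, so that loss cannot be told apart from the cold.

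In the methionine cycle and transsulfuration list, 3 of 10 genes rose in the cold, beside 9.67% of all genes, and 2 at ambient temperature, beside 3.88%. Cbs, which condenses homocysteine with serine, read 12.4, 14.35 and 17.6 CPM in cold bBMKO, against 9.06, 6.01 and 8.75 CPM in cold bBMCtr (0.90, SE 0.25, edgeR adjusted p = 0.0205). Its ambient levels were 17.2, 17.9 and 21.1 CPM in bBMKO, against 4.34, 8.45 and 7.27 CPM in bBMCtr (1.49, SE 0.25, adjusted p = 0.0101). The groups were apart at both temperatures. With cell division, lymphocyte or fat cell markers as a covariate the cold call of Cbs was lost.

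Cth, the next enzyme on the way to cysteine, rose by the same 1.34 (SE 0.31) at both temperatures, with adjusted p = 0.0109 in the cold and 0.0402 at ambient temperature by edgeR. It read 17.9, 14.8 and 18.4 CPM in cold bBMKO against 7.29, 5.72 and 7.15 CPM in cold bBMCtr, and 17.65, 11.5 and 17.8 CPM in ambient bBMKO against 3.15, 7.14 and 8.29 CPM in ambient bBMCtr. Cell division or fat cell markers as a covariate ended both calls, and lymphocyte markers that in the cold. Gnmt, which spends methyl groups on glycine, passed in the cold at levels of 0.584, 2.18 and 0.777 CPM in bBMKO against 0.755, 0.282 and 0.427 CPM in bBMCtr (1.27, SE 0.50, adjusted p = 0.0736). The Gnmt groups overlapped, and the call was lost without cold bBMKO replicate 2, cold bBMCtr replicate 2 or cold bBMCtr replicate 3. The remethylation genes Mtr and Mtrr, and Mat2a, Mat2b, Ahcy, Ahcyl1 and Ahcyl2, did not pass between genotypes.

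Of the nucleotide synthesis genes, 3 had an unadjusted p under 0.05 in edgeR in the cold (1 higher, 2 lower). At ambient temperature 2 did, as lower. With no share of all genes counted at that cut, nothing is read from these counts. Of 6 tested, only Ppat, the first enzyme of purine synthesis, passed between genotypes: it fell in cold bBMKO to 15.4, 16.9 and 13.2 CPM, against 22.1, 24.0 and 22.5 CPM in cold bBMCtr (-0.59, SE 0.14, edgeR adjusted p = 0.0135). That call was lost without cold bBMCtr replicate 2 or cold bBMKO replicate 3 and with any of the 5 covariates. Tyms, the thymidylate synthase, was at -0.06 in the cold and -0.15 at ambient temperature, and Gart, Paics, Pfas and Atic lay between -0.34 and 0.24. Atic was wholly lower in bBMKO, at 48.2 to 54.2 against 61.2 to 68.75 CPM in the cold and 56.6 to 67.5 against 69.1 to 77.9 CPM at ambient temperature. Paics was wholly higher in cold bBMKO (110.6 to 120.4 against 95.5 to 98.65 CPM) and Pfas in ambient bBMKO (38.7 to 44.1 against 36.7 to 38.2 CPM).

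For folate uptake and retention, Folr2, the folate receptor known from macrophages, passed in the cold at 108.7, 112.5 and 102 CPM in bBMKO, against 66.8, 79.9 and 47.7 CPM in bBMCtr (0.73, SE 0.33, edgeR adjusted p = 0.108). This call held in 4 of the 12 leave-outs. Summed macrophage markers overlapped between the genotypes in the cold, at 1985 to 2286 CPM in bBMKO against 1494 to 2461 CPM in bBMCtr. Folr1, the folate receptor of epithelia, fell with cold in bBMCtr (-4.43, SE 0.83, adjusted p = 0.00463) and bBMKO (-4.06, SE 0.78, adjusted p = 0.00459). It was at 0.213 CPM or less in the cold libraries and at 1.07 to 4.43 CPM in the ambient ones, a split that the mammary markers share, and with them as a covariate both calls were lost. Fpgs, which adds the glutamates that hold folate in the cell, fell with cold in bBMCtr (-0.70, SE 0.15, adjusted p = 0.00958) and in bBMKO (-0.68, SE 0.15, adjusted p = 0.00855). Those calls were lost with the same covariate too. The mammary markers split all libraries by temperature, so the losses of Folr1 and Fpgs under them cannot be told apart from the cold. Ggh and the mitochondrial folate carrier Slc25a32 did not pass in any comparison.

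Serine synthesis and transport had no gene past the thresholds between genotypes, with 1 of 6 at an unadjusted p under 0.05 in edgeR at each temperature and 0 called by DESeq2. No share of all genes was counted at the unadjusted cut. With cold, the mitochondrial serine carrier Sfxn1 rose in bBMCtr (0.65, SE 0.16, adjusted p = 0.0197), as did the amino acid transporter Slc1a5 (0.60, SE 0.20, adjusted p = 0.0773). Phgdh, the first enzyme of serine synthesis, rose with cold in bBMKO (1.01, SE 0.31, adjusted p = 0.0397). Leaving out ambient bBMCtr replicate 1 or cold bBMCtr replicate 3 ended the Sfxn1 and Slc1a5 calls, and leaving out cold bBMCtr replicate 1 ended that of Slc1a5.

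A list of 10 known Atf4 target genes, the stress program to which Mthfd2 belongs, did not move one way. In the cold 3 rose in bBMKO and 2 fell, beside 9.67% and 13.1% of all genes, with a median log2 fold change of -0.09. At ambient temperature 1 rose, beside 3.88% of all genes: Fgf21, at 0.966, 0.407 and 0.185 CPM in bBMKO against 0.0493, 0.145 and 0.269 CPM in bBMCtr, a call that held in 4 of the 12 leave-outs and not in DESeq2. Sesn2, a sestrin that restrains growth signalling, rose in cold bBMKO to 46.7, 49.3 and 57.8 CPM, against 24.75, 21.6 and 22.7 CPM in cold bBMCtr (1.15, SE 0.11, edgeR adjusted p = 0.000232). Slc7a11, the cystine carrier, fell to 0.292, 0.459 and 0.111 CPM in cold bBMKO, against 10.4, 11.7 and 8.06 CPM in cold bBMCtr (-5.10, SE 1.27, adjusted p = 0.0145), a call lost with lymphocyte markers as a covariate. Slc7a5, a carrier of large amino acids, fell by 1.20 (SE 0.46, adjusted p = 0.0679) and Trib3 rose by 0.76 (SE 0.31, adjusted p = 0.0825), calls that leaving out single cold libraries ended. Fgf21 passed in the cold (adjusted p = 0.0201) at 0.277 to 0.759 CPM in bBMKO and 0 to 0.0534 CPM in bBMCtr, too low in bBMCtr for a fold. Asns, Chac1, Ddit3 and Atf4 itself did not pass in any comparison.

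Finally, the genes whose log2 CPM went most closely with 2 of the members over the 12 libraries were sought among 14073 genes, as a description. Because Slc19a1 splits by genotype, a high value mostly restates that split. Nearest to Slc19a1 by Pearson's r were Xrcc3 (0.994), a DNA repair gene, Txndc15 (0.991), Dhrs3 (0.988), a retinaldehyde reductase, Zfyve21 (0.987) and Clock (0.986), the partner of Bmal1. Xrcc3 read 23.1, 19.4 and 22.7 CPM in cold bBMKO against 4.53, 3.33 and 3.79 CPM in cold bBMCtr. Among the other members Slc46a1 was 404th (0.89), and Mthfd1l lay at the opposite end (-0.94). By Spearman's rho 5 other genes came first, led by Cmc1 (0.972).

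Nearest to Mthfd2 were Sp100 (0.990) and Sp110 (0.985), nuclear body proteins abundant in immune cells, Slc16a6 (0.983), A630033H20Rik (0.983) and Tmsb10 (0.982). Sp100 read 79.95, 89.7 and 75.35 CPM in cold bBMKO against 151, 236 and 141 CPM in cold bBMCtr, and 86.1, 167 and 125 CPM in ambient bBMKO against 265, 151 and 111 CPM in ambient bBMCtr. It thus shared the scatter of Mthfd2 at ambient temperature, with replicate 2 highest in bBMKO and replicate 1 highest in bBMCtr. Shmt2 was 279th (0.91) and Mthfd1l 359th (0.90) on the list of Mthfd2.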

How the data were processed

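Per the labels and the study's methods, RNA of iWAT was made into libraries with the Kapa RNA mRNA HyperPrep kit and sequenced as single reads on an Illumina HiSeq. STAR alignment to mm10, followed by HTSeq counting of unique reads on GENCODE genes, gave the counts that the authors deposited. A second deposited table holds log2 FPKM after adding 0.1. Its FPKM go by a total beyond the sum of the counts and carry no TMM factor. The submitters' processing notes also name DESeq2, edgeR and limma. Versions and the GENCODE release: not given in the sources used here.

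The filter kept 15413 of 24091 genes, those exceeding 0.1 FPKM in 50% or more of the libraries. Counts were scaled by TMM and fitted over all 12 libraries, with a term per group, by glmQLFit and glmQLFTest in edgeR 4.0.16 (R 4.3.3). Calls needed more than 1.5-fold change, p under 0.05, and under 0.25 once adjusted by Benjamini-Hochberg over all genes kept. Log2 CPM used a prior count of 2. Log2 FPKM were turned back to FPKM for levels. The fits were tested on simulated data. No duplicate libraries were found among replicates.

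The members and lists were chosen with earlier results of these data known. All 8 members are named. Some genes of the pathway are not reported here. From each other list, up to 4 genes with the smallest p among those past the thresholds are named, and with 0 such genes up to 2. The 5 genes most like Slc19a1 and Mthfd2 were taken among genes with a mean of at least 1 CPM. Genes named beyond this rule were chosen after their values were seen. Each group's libraries come from separate mice, and p-values measure the spread between mice. The alternatives were DESeq2 1.42.0, RLE factors, library size alone, no filter, filterByExpr, only the groups compared, limma 3.58.1 on log2 FPKM, a replicate block, an adjusted p under 0.05 with no fold minimum, 5 marker or cell division covariates, and each library left out. The deposited counts of 17887795 to 21436282 per library set the precision of low genes. Promoter windows were taken from RefSeq.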

Additional observations from a re-analysis of the deposited data

Results flagged for a closer look

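Sesn2, one of the Atf4 target genes, passed the thresholds for an interaction of genotype and cold. Cold and ambient libraries also differed in sex and may have differed in age, so an interaction with temperature cannot be told apart from one with either. The log2 fold change of bBMKO against bBMCtr was 1.15 in the cold and 0.48 at ambient temperature, and the interaction was 0.671 (SE 0.16, edgeR unadjusted p = 0.00175, adjusted p = 0.233), with higher Sesn2 in bBMKO in 6 of 6 libraries. Leaving out ambient bBMCtr replicate 1 or ambient bBMKO replicate 2 kept the call, and leaving out any of the other 10 libraries in turn ended it. Of 13 other alternatives, 6 kept it.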

How the results depend on the processing

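As counts with no test meant, of the 8 members 4 were past the thresholds for genotype at ambient temperature, and the count became 2 in a fit of only the groups compared, 2 at an adjusted p under 0.05 and 1 with cell division as a covariate. In the cold, 4 likewise became 2 with lymphocyte or with fat cell markers as a covariate. For cold against ambient in bBMCtr, 1 became 0 with mammary and 3 with fat cell markers. In bBMKO, 1 became 3 in DESeq2, with library size alone, with no filter, in the groups compared and with fat cell markers, 2 in limma and at an adjusted p under 0.05, 0 with mammary markers, and 0 to 3 over the leave-outs. For the interaction, 0 became 1 in DESeq2, 2 with fat cell markers and 0 to 3 over the leave-outs. The share of all genes past the thresholds was counted for the main fit alone. A change in these counts thus cannot be told apart from a change in that share.

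Of the other pathway genes, 4 past the thresholds for genotype at ambient temperature became 2 with cell division as a covariate, and 8 in the cold became 4 in limma, 5 with library size alone or with cell division, mammary, muscle or fat cell markers, and 1 with lymphocyte markers. For cold in bBMCtr, 7 became 0 with mammary and 4 with fat cell markers, and in bBMKO 6 became 10 at an adjusted p under 0.05 and 2 with mammary markers. For the interaction, 0 became 0 to 1 over the leave-outs. Here too the share of all genes under each alternative was not counted, so nothing is read from these counts.

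Between genotypes, signs of members turned for Mthfd2 at ambient temperature (0.74 with fat cell markers), for Aldh1l1 at ambient temperature (-0.053 with cell division, -0.38 with fat cell markers, -0.13 to 0.30 over the leave-outs) and in the cold (-0.16 with library size alone, -0.13 in limma, -0.27 with cell division, -0.36 with lymphocyte, -0.15 with muscle and -0.52 with fat cell markers, -0.064 to 0.13), and for Mthfd1 at ambient temperature (-0.12 to 0.0036 over the leave-outs) and in the cold (-0.18 with library size alone, -0.15 in limma, -0.12 with lymphocyte markers, -0.030 to 0.082). The turned signs were, for cold against ambient in bBMCtr, Slc46a1 (1.24 with mammary and 0.066 with lymphocyte markers, -0.26 to 0.11 over the leave-outs), Mthfd2 (0.0070 with no filter, 0.093 in limma, 0.079 with muscle and 1.89 with fat cell markers, -0.32 to 0.57), Mthfd1l (-0.0067 with library size alone, -1.76 with mammary and -0.053 with lymphocyte markers, -0.042 to 0.39), Shmt1 (0.87 with mammary markers), Shmt2 (0.32 with fat cell markers, -0.16 to 0.0069) and Aldh1l1 (-0.48 with fat cell markers). In bBMKO they were Slc46a1 (1.20) and Shmt1 (1.20) with mammary markers, and Mthfd2 (0.93), Mthfd1l (0.40), Shmt2 (0.13) and Aldh1l1 (-0.61) with fat cell markers, where Aldh1l1 was also at -0.0015 with muscle markers. For the interaction, Slc46a1 ran from -0.23 to 0.14 and Aldh1l1 from -0.28 to 0.15 over the leave-outs. The cause was not tested. Mammary markers split all libraries by temperature, so in fits with them as a covariate the part of the cold cannot be told apart. The interaction has no fit of only 2 groups.

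Same-numbered libraries did not deviate together (correlations of -0.70 to 0.45), and over the 4 pairs of groups 0 to 3 of 6 libraries matched their own number best. With a replicate block the members past the thresholds stayed at 4, 4, 1, 1 and 0 for genotype at ambient temperature, genotype in the cold, cold in bBMCtr, cold in bBMKO and the interaction. The other pathway genes were 4, 7, 7, 6 and 0 with the block, for which the share of all genes was not counted.

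FPKM recomputed from CPM and gene length kept 32 of 32 ranks of members within groups, and the cell division score moved by less than its SD with a prior count of 0.5. Of the 5 genes most like Slc19a1 by Pearson's r, 0 were among the 5 by Spearman's rho, and 1 of 5 for Mthfd2. Mthfd2 had the widest standard errors of the 8, at 0.44 to 0.46 in the comparisons of 2 groups.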
